A study of Oryza sativa with 4 samples.

Results

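OsLEC1 peaks on the arms of rice chromosomes 2, 4 and 6 are described here, which are 6925 of the 27452 peaks listed for the tagged protein, or 25.2%. A peak was taken by the position of its summit, the base with the highest ChIP coverage. On chromosomes 2 and 6, summits above 1 Mb and more than 2 Mb from the centromere were kept, with centromeres placed at 13.7 and 15.4 Mb. On chromosome 4, summits from 19 Mb on were kept. On all of them the summit had to lie more than 1 Mb before the last summit of its chromosome. This gave 5 arms, named 2S (747 peaks), 2L (2300), 4L (2019), 6S (907) and 6L (952), where S is the side of low and L the side of high coordinates.

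The peaks come from chromatin immunoprecipitation and sequencing (ChIP-seq) of Oryza sativa callus, the tissue mass that seeds form on auxin medium, induced for 30 days with 10 μM 2,4-D. OsLEC1-ChIP was made from 35S:3*FLAG-OsLEC1 callus in the Nipponbare (NIP) background, in which the constitutive 35S promoter drives FLAG-tagged OsLEC1. The study used the callus of 1 transgenic line, 2#, for ChIP-seq. NIP-ChIP was made from untagged wild type callus with the same anti-DDDDK antibody. Both genotypes are represented by a single ChIP library with its input, so no difference in these data has a replicate check, and the arms are places within 1 library.

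LEC1 proteins are NF-YB subunits of the NF-Y transcription factor. An NF-YB protein pairs with an NF-YC partner, and the pair joins an NF-YA subunit that reads CCAAT, or other factors such as bZIP proteins, which read G-box-like elements. In Arabidopsis, LEC1 directs embryo development and seed maturation and is able to bring about embryo-like growth in vegetative tissue. The ancestor of the grasses duplicated its genome, and the blocks left from that event pair chromosome 2 of rice with chromosomes 4 and 6. Genes in cereals are in general denser towards the ends of arms, and the part of rice chromosome 4 below the limit used here is rich in heterochromatin. The genes and sequences at the peaks, and the limits of the duplicated blocks, were not analysed here.

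These measures describe a peak here. The pileup counts the ChIP fragments that cover the summit, the background is the number of fragments that the input or the mean coverage predicts there, and the fold is their ratio after 1 is added to each. The list gives the fold and the p-value, from which pileup and background were solved. A base of the genome was covered by 3.49 fragments on average in OsLEC1-ChIP, and by at most 0.842 in NIP-ChIP, or 24.1% of it. The 2 NIP peaks lie on chromosome 11, so 0 lay in the arms, and the margin of 10 kb could not change this. A count of 0 allows up to 3 by counting error alone, and the arms hold 25.2% of the OsLEC1 peaks. Of the 6925 OsLEC1 peaks in the arms, 2209 (31.9%) would be expected to pass a −log10 p-value of 7.68 if sequenced at the largest depth NIP-ChIP could have had, and 13.5 at 1% of the OsLEC1 depth. At the full depth of OsLEC1-ChIP, 6187 pass the same limit. The true depth of NIP-ChIP is unknown.

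The long-side arms of chromosomes 2 and 4 carried many more OsLEC1 peaks per Mb than the other arms. In 4L the density was 130.2 peaks per Mb (exact Poisson 95% interval 125 to 136) over a length of 15.5 Mb. In 2L it was 119.6 peaks per Mb (115 to 125) over 19.2 Mb. The other arms were close to each other, with 74.3 peaks per Mb in 6L (69.7 to 79.2) over 12.8 Mb, 73.1 in 6S (68.5 to 78.1) over 12.4 Mb, and 69.8 in 2S (64.9 to 75) over 10.7 Mb. These intervals hold counting error alone. The arm 4L is an outer segment cut at 19 Mb, while the other arms are followed to 2 Mb from their centromeres. In the outer 10 Mb of each arm, a setting chosen after the data were seen, 2L had 149 and 4L 138.7 peaks per Mb. There 6L had 85.5, 6S 79.4 and 2S 71.1.

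The widest gap was between 4L and 2S, with a ratio of 1.87 (95% interval 1.71 to 2.03). Within chromosome 2, 2L had 1.71 times the density of 2S (1.58 to 1.86). The ratio was 1.64 for 2L over 6S (1.51 to 1.77) and 1.61 for 2L over 6L (1.49 to 1.74). For 4L over 6L it was 1.75 (1.62 to 1.90). The arms of low density did not differ beyond counting error. The ratio of 6S over 2S was 1.05 (0.95 to 1.16), and that of 6L over 6S was 1.02 (0.927 to 1.11). The ratio of 4L over 2L was 1.09 (1.02 to 1.16) over the whole arms. It turned to 0.931 in the outer 10 Mb of both, a setting chosen after the data were seen, so their order depends on how far the arm is followed towards the centromere.

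**Figure D1:**
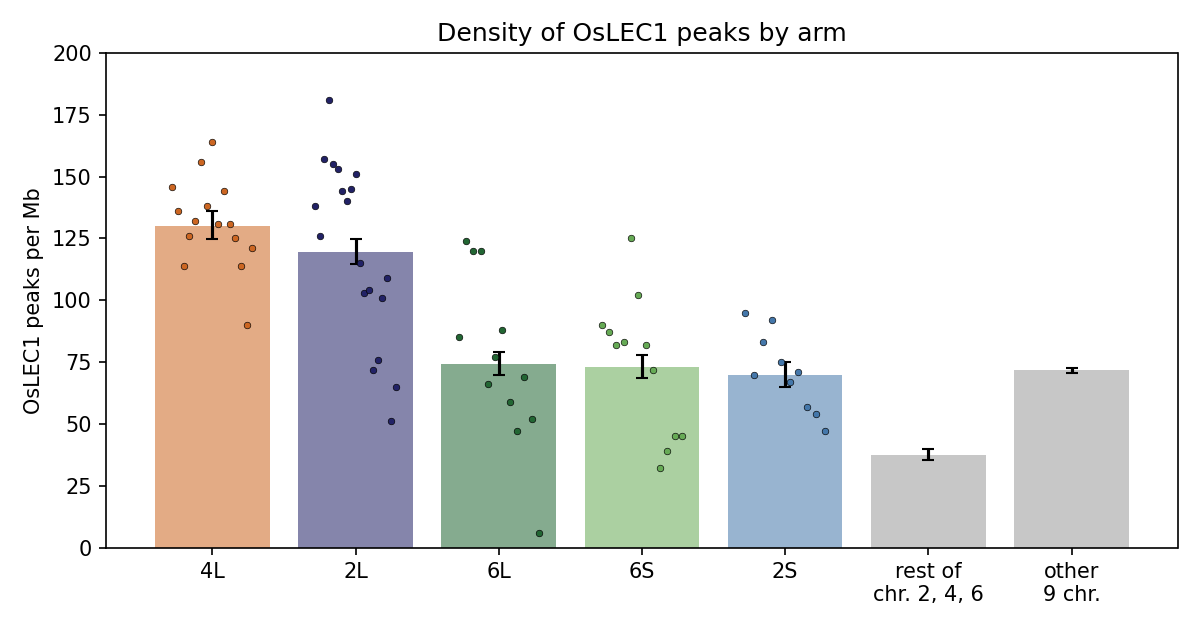
Peaks per Mb in the 5 arms, in the rest of chromosomes 2, 4 and 6, and in the other 9 chromosomes with their centromeres and ends. Bars give the value over the whole length with its exact Poisson 95% interval, and points give the complete 1 Mb bins of each arm, ordered from the distal limit inwards. The bars of 4L (130.2) and 2L (119.6) stand above those of 6L (74.3), 6S (73.1) and 2S (69.8), while single bins overlap between arms.

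Together the arms held 98.0 peaks per Mb (95.7 to 100.4), against 71.7 (70.7 to 72.7) between the first and last summits of the other 9 chromosomes, a ratio of 1.37 (1.33 to 1.41). The other chromosomes enter with their centromeres and ends, which the rule leaves out of the arms. The ratio therefore does not compare like parts of chromosomes. The parts of chromosomes 2, 4 and 6 that the rule leaves out held 37.6 peaks per Mb (35.5 to 39.8). Among these, chromosome 4 up to 19 Mb had 24.1 (21.9 to 26.4), and the stretches around the centromeres had 41.5 on chromosome 2 (35.4 to 48.3) and 36.2 on chromosome 6 (30.6 to 42.7). Every Mb left out at a chromosome end held fewer peaks than the arm bin next to it. The last Mb held 127 peaks on chromosome 4 (106 to 151), 100 on chromosome 2 (81.4 to 122) and 77 on chromosome 6 (60.8 to 96.2), where the adjacent bins had 146 in 4L, 138 in 2L and 85 in 6L. The first Mb held 65 on chromosome 2 (50.2 to 82.8) and 59 on chromosome 6 (44.9 to 76.1), next to bins with 95 in 2S and 90 in 6S. The intervals of the last Mb of chromosomes 4 and 6 include the count of the bin beside them, and those of the other pieces do not. At the limits, the last summit left out on chromosome 4 had 44 fragments at 18999271, and the first one kept had 18 fragments at 19005634.

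Within the limits of each arm, the outer part was denser than the inner part, and the ratio was smallest in 4L, which is cut at 19 Mb and not near its centromere. In each arm, complete 1 Mb bins were counted inwards from the distal limit. The outer part of 6L, up to its midpoint, held 97.9 peaks per Mb against 50.7 in its inner part, a ratio of 1.93 (1.68 to 2.21). The ratio was 1.86 in 6S (1.62 to 2.14), 1.64 in 2L (1.51 to 1.79) and 1.43 in 2S (1.23 to 1.65). In 4L, with 139 and 122 peaks per Mb, it was 1.14 (1.04 to 1.24). Across the bins of an arm, Spearman's rho between the count and the distance from the distal limit was -0.48 in 4L (15 bins), -0.81 in 2L (19), -0.82 in 6L (12), -0.75 in 6S (12) and -0.84 in 2S (10). Neighbouring bins are parts of 1 library and not independent, and rho is given as a description. The decline did not run evenly along 2L and 4L. The first 5 bins from the distal limit held 654 peaks in 4L and the next 5 held 733, and in 2L they held 757 and 733. In the other arms the first 5 bins held the larger number, with 515 and 340 in 6L, 467 and 327 in 6S, and 415 and 296 in 2S.

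The bins also show how uneven each arm was. In 4L they held from 90 to 164 peaks with a median of 131, and the variance was 2.51 times the mean. In 2S the range was 47 to 95 with a ratio of 3.52. The bins of 2L ranged from 51 to 181 (ratio 10.8), those of 6S from 32 to 125 (10.7) and those of 6L from 6 to 124 (15.7). Peaks placed independently would give a ratio near 1, so the counting intervals above understate the unevenness within arms, most of all in 6L.

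The densest bin of all was in 2L, from 30923879 to 31923878, with 181 peaks (95% interval 156 to 209). The densest in 4L, from 26501649 to 27501648, had 164 peaks (139.9 to 191) and also the widest peaks by median of any bin, 528.5 bp. On chromosome 6 the densest bins were from 5000001 to 6000000 in 6S, with 125 peaks (104 to 149), and from 28212431 to 29212430 in 6L, with 124 (103 to 148). These counts do not differ beyond counting error, and both lie below the median bin of 4L. In 2S the highest count, 95 peaks (76.9 to 116), was in the bin next to the distal limit, from 1000001 to 2000000.

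The sparsest bin, with 6 peaks (2.20 to 13.1), was in 6L from 18212431 to 19212430. It contains a stretch of 623 kb without a summit, between 18217375 and 18840551. The longest stretches in the other arms were far shorter, with 160.4 kb in 6S, 151 kb in 2S, 134 kb in 2L and 131 kb in 4L. The sparsest bins elsewhere held 32 peaks in 6S (9000001 to 10000000), 47 in 2S (10000001 to 11000000), 51 in 2L (16923879 to 17923878) and 90 in 4L (20501649 to 21501648). The sparsest bin of 4L thus had nearly as many peaks as the densest of 2S.

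**Figure D2:**
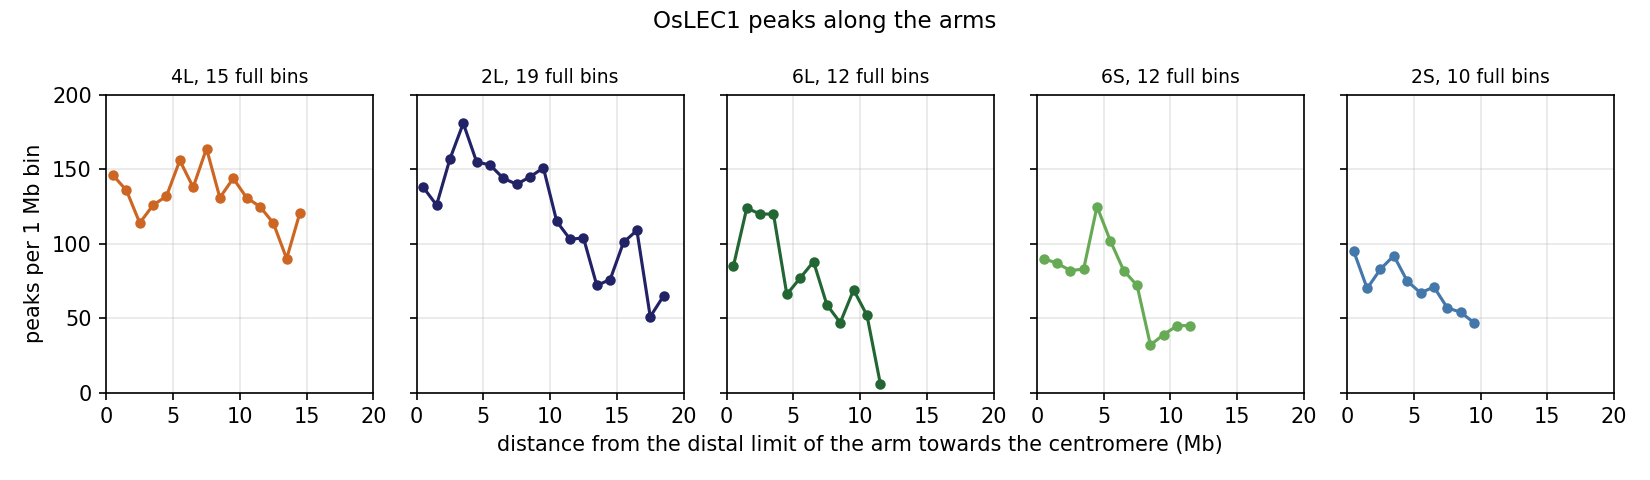
Peaks in complete 1 Mb bins of each arm, plotted against the distance from the distal limit towards the centromere in Mb. The lowest bins hold 90 in 4L, 51 in 2L, 6 in 6L, 32 in 6S and 47 in 2S.

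Profiles of arms were also set side by side, bin by bin from the distal limits. Among the 12 outer bins, 2L exceeded 6S in 12 and 6L in 12, and 4L exceeded 6S in 12 and 6L in 11. Among 10 bins, 2S was exceeded by 2L in 10 and by 4L in 10, but by 6S in 5 and by 6L in 7. Over 15 bins, 4L was higher than 2L in 9, with means of 131 in both. Between chromosomes 2 and 4, rho between the profiles was 0.35 for 2L and 4L and -0.35 for 2S and 4L. For chromosome 2 with chromosome 6 it was 0.59 (2S and 6S), 0.57 (2S and 6L), 0.31 (2L and 6S) and 0.41 (2L and 6L), while 4L had 0.26 with 6S and 0.03 with 6L. The arms of chromosome 6 had 0.54 with each other, and those of chromosome 2 had 0.21. Positions from the distal limits do not align duplicated blocks, so nothing about shared blocks is read from rho.

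The median height of the peaks was nearly the same in all arms. The median fold was 5.07 in 4L (95% interval of the median 4.95 to 5.20), 5.12 in 2L (5.01 to 5.25), 5.08 in 6L (4.91 to 5.21), 5.06 in 6S (4.86 to 5.21) and 5.33 in 2S (5.12 to 5.53). All of these intervals overlapped, and the other 9 chromosomes had a median of 5.12. The median pileup lay between 37 fragments in 6S (36 to 39) and 41 in 2L (39 to 41). A pileup of 100 fragments or more was found for 4.08% of peaks in 6S (2.89 to 5.58%), 3.83% in 2L (3.08 to 4.69%), 3.62% in 4L (2.84 to 4.53%), 3.35% in 2S (2.18 to 4.90%) and 2.73% in 6L (1.79 to 3.98%). By this limit, the arms with the most peaks did not have a larger share of high ones. The upper quartile of the pileup was higher in them, however, at 58 fragments in 4L and 56.25 in 2L. It was 53 in 6S and 52 in both 2S and 6L.

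The background, set by the input of the same callus or by the mean coverage, differed slightly. Its median was 7.16 fragments in 4L (6.91 to 7.63) and 6.91 in 2L (6.68 to 7.37), against 6.45 in 2S (5.99 to 6.68) and 6.68 in both 6S (6.22 to 6.68) and 6L (6.45 to 6.68). Peaks whose background sat at the lowest level, 3.49 fragments, made up 1.78% of 4L (1.25 to 2.46%) and 3.00% of 2L (2.34 to 3.78%), against 5.22% of 2S (3.74 to 7.07%), 4.74% of 6S (3.45 to 6.33%) and 4.73% of 6L (3.47 to 6.27%). These values hold at the summits and do not measure the input over a whole arm. With only peaks from a −log10 q of 5 on, the median of 2L was 6.68, as in 6S and 6L. From 10 on, it was 7.14 in both 2L and 4L, against 6.22 in 2S, 6.45 in 6S and 6.68 in 6L. With 4 Mb around the centromere left out, and chromosome 4 from 21 Mb, it was 7.14 in 2L and 7.37 in 4L. It was 6.68 in each of the other arms. Whether the background has a part in the number of peaks was not tested.

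The width of the peaks, in contrast, set 2L and 4L apart from the other arms. The median width was 445 bp in 2L (437 to 455) and 450 bp in 4L (438 to 461), against 385 bp in 2S (371 to 399), 392 bp in 6S (379 to 403) and 395 bp in 6L (385 to 408). The upper end differed more. The widest 5% of peaks began at 1182 bp in 2L and 1248 bp in 4L, but at 821 bp in 2S, 859 bp in 6S and 918 bp in 6L.

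Peaks of at least 1000 bp numbered 190 in 2L, or 8.26% (exact Clopper-Pearson 95% interval 7.17 to 9.46%), and 188 in 4L, or 9.31% (8.08 to 10.7%). There were 16 in 2S, or 2.14% (1.23 to 3.46%), 20 in 6S, or 2.21% (1.35 to 3.39%), and 33 in 6L, or 3.47% (2.40 to 4.83%). Taking 2L with 4L, and 2S with 6S and 6L, was a grouping made after these values were seen. By it, the share was 3.31 times as high in 2L and 4L (2.55 to 4.34). This interval holds counting error alone and not the spread between places in an arm. OsLEC1 peaks covered 6.48% of the bases of 2L and 7.18% of those of 4L, and 3.08 to 3.47% in the other arms. Among the other 9 chromosomes the share of such wide peaks ran from 1.71% on chromosome 11 to 7.07% on chromosome 1, in whole chromosomes with their centromeres. The intervals of chromosome 1 (6.32 to 7.88%) and of chromosome 3, with 6.88% (6.12 to 7.71%), overlapped that of 2L and lay below that of 4L. The next highest share was 4.48%, on chromosome 9.

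**Figure D3:**
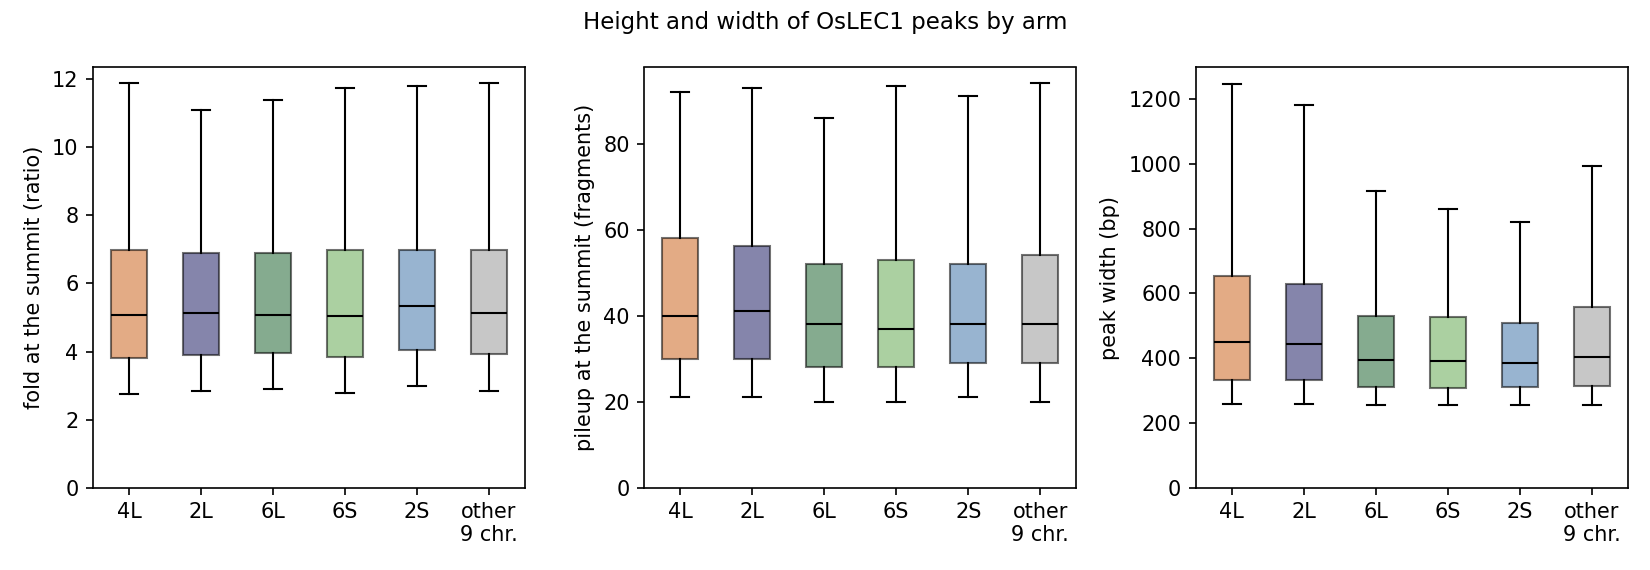
Fold, pileup and width of OsLEC1 peaks in the 5 arms and on the other 9 chromosomes, with the median (line), the quartiles (box) and the 5% and 95% points (whiskers). Fold and pileup overlap closely, with median folds from 5.06 to 5.33, while the upper whisker of width reaches 1182 bp in 2L and 1248 bp in 4L against 821 to 918 bp in the other arms.

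Higher peaks were wider in every arm, with rho between pileup and width from 0.54 (6L) to 0.59 (2S) across peaks, so arms were compared at equal pileup. Among peaks with 30 to 49 fragments over the summit, the median width was 415 bp in 2L (404 to 426) and 400.5 bp in 4L (386 to 414), against 366 bp in 2S (352 to 379), 369 bp in 6S (347 to 386) and 371.5 bp in 6L (354 to 388). Peaks of 1000 bp or more made up 4.89% of this class in 2L (3.63 to 6.43%) and 5.56% in 4L (4.11 to 7.32%), but 1.17% in 2S (0.321 to 2.98%), 0.769% in 6S (0.159 to 2.23%) and 0.98% in 6L (0.268 to 2.49%). In this class the shares in 2L and 4L lay above those of the other 3 arms beyond counting error, as did the median width of 2L. The interval of the median of 4L reached those of 6S and 6L. Such intervals treat the peaks of 1 library as independent. Over all pileups, the share in single bins ran from 1.39 to 16.6% in 2L and 1.75 to 14.6% in 4L. It ran from 0 to 10.6% in 6L, 0 to 6.25% in 6S and 0 to 5.26% in 2S. The intervals of shares and widths can therefore understate the spread within an arm. Whether the arms differ in width beyond that spread was not tested.

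For 50 to 79 fragments, the median width was 549.5 bp in 2L (525 to 572) and 559.5 bp in 4L (535 to 588), against 473 bp in 2S (455 to 499), 490 bp in 6S (477 to 517) and 494.5 bp in 6L (472 to 529). The share of peaks of 1000 bp or more was 14.5% in 2L (11.7 to 17.7%) and 15.8% in 4L (12.8 to 19.3%). It was 4.14% in 2S (1.53 to 8.79%), 2.70% in 6S (0.883 to 6.19%) and 8.26% in 6L (4.97 to 12.7%), and the interval of 6L overlapped that of 2L and just failed to reach that of 4L. With 80 fragments or more, the share in 2L was 25.1% (19.5 to 31.4%) and in 4L 29.5% (23.2 to 36.5%), against 9.84% in 2S (3.70 to 20.2%), 15.1% in 6S (7.77 to 25.4%) and 14.8% in 6L (6.98 to 26.2%). In this class the number of peaks, 61 to 73 in the sparser arms, left intervals that overlapped with those of 2L in all of them. The median width in this class was 713 bp in both 2L (663 to 763) and 6L (652 to 780), with 758 bp in 4L (691 to 846), 656 bp in 6S (597 to 703) and 605 bp in 2S (569 to 674). Below 30 fragments, the share was under 1% in every arm and no difference was detectable.

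**Figure D4:**
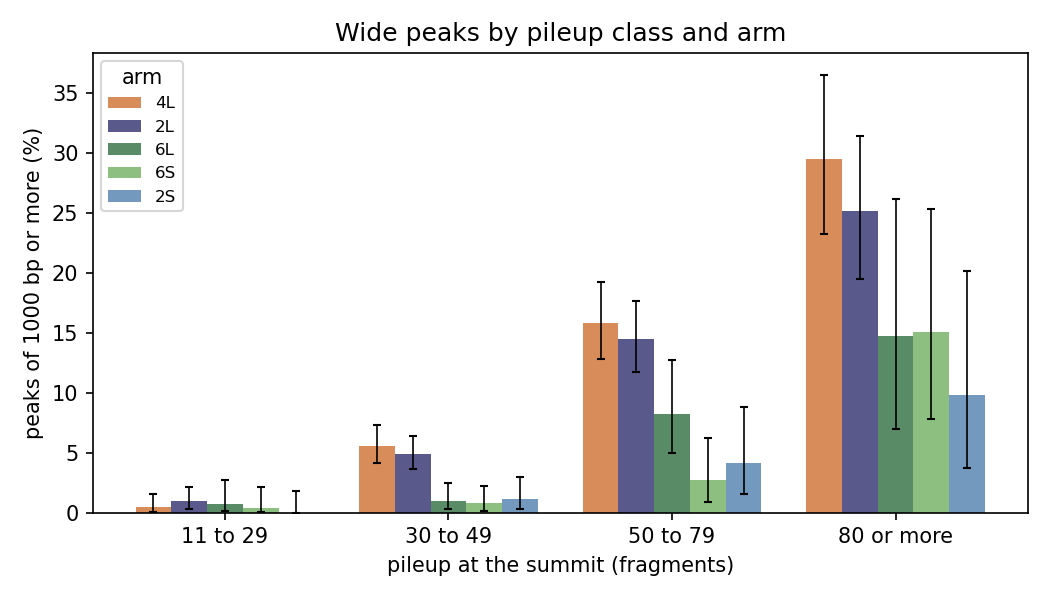
Percent of peaks of 1000 bp or more by pileup at the summit, in fragments, and by arm, with exact Clopper-Pearson 95% intervals. In the classes of 30 to 49 and 50 to 79 fragments, 2L (4.89 and 14.5%) and 4L (5.56 and 15.8%) stand above the other arms (0.769 to 1.17% and 2.70 to 8.26%).

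Width was also compared between bins of like density. In bins with 100 to 129 peaks, the share of peaks of 1000 bp or more was 7.29% in the 6 such bins of 2L (5.43 to 9.56%) and 7.50% in 5 bins of 4L (5.52 to 9.91%). It was 1.76% in 2 bins of 6S (0.482 to 4.45%) and 4.95% in 3 bins of 6L (2.96 to 7.70%). By these pooled shares, the 2 bins of 6S had few wide peaks, while those of 6L could not be told from the bins of chromosomes 2 and 4. Single bins ranged from 1.94 to 12.9% in 2L, 1.75 to 12% in 4L and 1.67 to 8.06% in 6L. The 2 bins of 6S had 1.6 and 1.96%, so the lowest bins of 2L and 4L were near them. In bins with 40 to 79 peaks, 2L had 2.65% (1.07 to 5.39%), within the range of 2S (1.81%), 6S (1.85%) and 6L (3.51%), so the sparse inner bins of 2L did not stand apart by this share. Their median width was 425.5 bp (402 to 443), however, above 388.5 bp in 6L (369 to 401) and 378 bp in 2S (360 to 399) and overlapping with 408 bp in 6S (391 to 442). This pools 4 bins of 2L, and medians of single bins overlapped between arms. They ran from 361 to 438 bp in 2L, 355 to 405 bp in 2S, 365 to 435 bp in 6S and 329 to 408 bp in 6L.

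Along the arms, 14 of the 15 bins of 4L and 12 of the 19 bins of 2L had more than 5% of wide peaks, against 1 of 10 in 2S, 1 of 12 in 6S and 3 of 12 in 6L. The highest share in a bin was 16.6%, in the densest bin of 2L. In 6L, the bin from 25212431 to 26212430, noticed after the values were seen, had 10.6% of wide peaks with only 66 peaks in all. In 2L and 4L, the peak following a wide peak along the chromosome was itself wide in 12.1% (7.83 to 17.6%) and 12.8% (8.35 to 18.4%) of cases, and after other peaks in 7.92% (6.80 to 9.15%) and 8.96% (7.69 to 10.4%). These intervals overlapped in both arms.

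Neighbouring summits lay closer together in the dense arms. More peaks per Mb shorten these distances by construction, and the shares and runs below depend on density in the same way. Whether summits cluster beyond what the density of an arm gives was not tested. The median distance was 4.91 kb in 2L and 5.05 kb in 4L, against 8.26 kb in 2S, 7.19 kb in 6S and 6.82 kb in 6L. Distances under 2 kb made up 23.5% in 2L (21.8 to 25.3%) and 22.0% in 4L (20.2 to 23.9%). They made up 17.4% in 2S (14.8 to 20.3%), 14.8% in 6S (12.5 to 17.3%) and 17.5% in 6L (15.1 to 20.02%). The share of peaks with no other summit within 20 kb was 0.842% in 4L (0.491 to 1.34%) and 1.91% in 2L (1.39 to 2.56%), against 6.96% in 2S (5.24 to 9.03%), 5.29% in 6S (3.93 to 6.95%) and 4.2% in 6L (3.02 to 5.68%).

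Distances under 1 kb made up 6.0% in 4L (5.0 to 7.12%), 6.44% in 2L (5.47 to 7.52%), 5.68% in 6L (4.29 to 7.34%), 3.53% in 6S (2.43 to 4.95%) and 4.29% in 2S (2.95 to 6.0%). The intervals of 6L and 2S overlapped with those of both 2L and 4L, and that of 6S lay below them. Summits under 2 kb from a neighbour were no higher than others, with a median pileup of 39 in 2L and 40 in 4L, against 41 for the other summits of both arms.

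Runs of at least 3 summits with each step under 2 kb held 15.7% of the peaks of 2L and 13.7% of those of 4L, and 6.28 to 8.40% in the other arms. The longest run of all was in 6L, with 8 summits in 8.79 kb between 22612058 and 22620851, whose pileups ranged from 22 to 71 fragments. The longest in 2L had 6 summits between 34444625 and 34451311, and that in 4L had 6 between 19201753 and 19209362. The longest in 6S had 6 between 1620402 and 1627143, and that in 2S had 5 between 4365118 and 4371620.

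**Figure D5:**
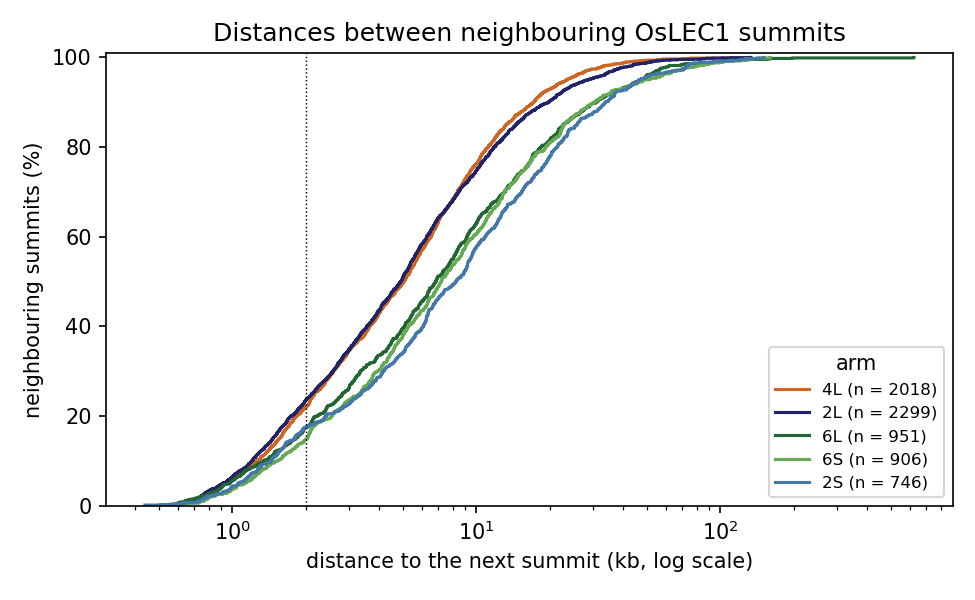
Cumulative percent of neighbouring summits by the distance to the next summit, in kb on a log scale, for each arm; the dotted line marks 2 kb. The curves of 2L and 4L lie together, with medians of 4.91 and 5.05 kb, left of those of 6L, 6S and 2S with 6.82, 7.19 and 8.26 kb.

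Single peaks were then examined by a rule that takes the 3 highest folds, the lowest fold and the widest peak of each arm. In 2L, the highest fold, 37.8, is that of the peak from 22835403 to 22836102, with rank 3 in the whole list. It had 181 fragments (exact Poisson 95% interval 156 to 209) over a background of 3.82 and only 3 other summits within 50 kb. The next, from 17275828 to 17277766, reached 29.6, its 154 fragments (131 to 180.3) lying over 4.24. It lies in the sparsest bin of the arm and is 1939 bp wide. In the densest bin of the arm, the peak from 31213180 to 31213892 reached 28.4, its 271 fragments (239.7 to 305) lying over 8.59. Its pileup exceeded those of the other 2 beyond counting error, although its fold was lower. The widest peak of 2L, 2995 bp from 31152661 to 31155655, lies 60.0 kb away by summit and was low, with 45 fragments (32.8 to 60.2) and a fold of 5.99. The lowest fold, 2.01, was that of a peak from 29482708 to 29483011 with 26 fragments (17.0 to 38.1) over 12.4.

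In 4L, the highest fold was 33.8, for the peak from 21602852 to 21603600 with 226 fragments (197 to 257) over 5.72. The peaks from 29376877 to 29377495 and from 21666293 to 21666899 had folds of 23.6 and 23.0, with 135 (113 to 159.8) and 132 fragments (110.4 to 157). The pileup of the first stands above the others beyond counting error, and those of the other two overlap. The widest peak of all 5 arms was in 4L, 3391 bp from 19991295 to 19994685, with 91 fragments (73.3 to 112) at a fold of 8.73. The lowest fold, 1.92, belonged to a peak from 26473663 to 26473925 with 32 fragments (21.9 to 45.2) over a high background of 16.2, which is 2.26 times the median of the arm.

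In 6S, the 2 peaks of highest fold had summits 23.9 kb apart. A fold of 32.6 belonged to the peak from 3195155 to 3195823, whose 191 fragments (165 to 220.1) lay over 4.88, and one of 32.2 to the peak from 3171307 to 3171922, whose 144 fragments (121 to 169.5) lay over 3.5. Their folds rank 10 and 11 in the whole list. The next, from 4004740 to 4005935, reached 28.0, its 187 fragments (161 to 216) lying over 5.72. The pileups of all 3 overlapped within counting error. The widest peak, 1665 bp from 2683614 to 2685278, was also high, with a fold of 13.4 and 89 fragments (71.5 to 109.5). The lowest fold was 2.02, from 3350367 to 3351148, with 28 fragments (18.6 to 40.5) over 13.4.

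In 2S, the highest fold was 27.5, for the peak from 3327853 to 3328680 with 166 fragments (142 to 193) over 5.07. Those next in order had summits 48.0 kb apart. They were located from 7463229 to 7464436 with a fold of 23.1 and 139 fragments (117 to 164), and from 7415472 to 7415947 with a fold of 20.5 and 91 fragments (73.3 to 112). The background of the last was 3.49, the floor of the library, so its fold rests on the mean coverage and not on local input. The widest peak, 1604 bp from 5805380 to 5806983, was high, its 103 fragments (84.1 to 125) giving a fold of 12.05. The lowest fold, 2.09, was that of the peak from 5893749 to 5894081 with 21 fragments (13 to 32.1) over 9.54.

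The highest fold of 6L was the smallest such value among the 5 arms. It was 23.3, for a peak from 17540602 to 17541373 with 124 fragments (103 to 148) over 4.38. It stands almost alone near the inner limit, with 1 other summit within 50 kb and the nearest at 35.9 kb. The peaks from 27895669 to 27896263 and from 23944310 to 23945126 had folds of 18.5 and 17.3, with 106 (86.8 to 128) and 132 fragments (110.4 to 157). The 3 pileups did not differ beyond counting error. The widest peak, 2161 bp from 23538320 to 23540480, was high too, its 107 fragments (87.7 to 129) giving a fold of 13.3, and the lowest fold, 2.09 from 26717590 to 26718020, came from 29 fragments (19.4 to 41.6) over 13.4.

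The peaks of lowest fold shared a background from 1.48 to 2.26 times the median of their arm, whereas 14 of the 15 peaks of highest fold had a background at or below it. A fold has the background in its divisor, and across peaks rho between the 2 was -0.30 in all 5 arms together, while rho between background and pileup was 0.41. The widest peaks of 2S, 6S and 6L had folds of 12.05 to 13.4, while those of 2L and 4L had 5.99 and 8.73. With 1 widest peak per arm, this order has no check.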

How the data were processed

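The authors aligned the reads with Bowtie2 2.3.4.1 to IRGSP-1.0, kept uniquely mapped reads and found peaks with MACS2 2.1.2, the matching input as control, at a q-value of 0.01. Versions and build are from the submitters' processing notes. Reads from sequence repeated without differences are not kept as uniquely mapped. Whether this bears on density near centromeres was not tested. The methods also name the irreproducibility discovery rate for replicates; the labels give 1 library per group, and whether that step was applied to these lists is unknown. Of the 4 libraries, 2 have a peak list. The deposited values of a peak are the fold, a ratio, its significance as −log10 of the p-value and of the q-value, and the summit's offset. The deposited score was 10 times −log10 q without its decimals, in 100% of peaks.

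The members, lists and limits were chosen with earlier results of these data known. Arms were cut by the rule given at the start of the report, on 0-based summits, and positions are printed 1-based. Pileup and background were solved from fold and −log10 p-value for each peak, and a whole-number pileup returned the −log10 p-value within 0.001 for 100% of peaks. The step was tested on simulated data. Depth is known only as the lowest background, the mean coverage, shared by 1240 OsLEC1 peaks. Intervals are at 95%, exact Poisson for counts and pileups, conditional binomial for ratios, Clopper-Pearson for shares and order statistics for medians. They hold counting error alone, since there is 1 library per group. Amplified fragments are not independent molecules, which can make the intervals of pileups too narrow even for that. No test was run, as each group has 1 library. The expected numbers at lower depth were computed by binomial thinning of pileup and background.

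Named were, per arm, the 3 peaks of highest fold, the 1 of lowest fold, the widest peak, and the densest and sparsest 1 Mb bin; the longest stretches and runs were added later. The nearest genes, which that rule also asks for, were not analysed here, because the gene table at hand is on another assembly. Alternatives were stricter q-values, wider centromere margins, the median of bins, another distance limit, and, added after the data were seen, the outer 10 Mb and another width limit. Python 3.11.15, numpy 2.4.6, pandas 2.3.3 and scipy 1.17.1 were used.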

Additional observations from a re-analysis of the deposited data

How the results depend on the processing

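The limits of 10 Mb and 800 bp, and the shares of wide peaks, were chosen after the data were seen. Of 149 values under the alternatives, 88 stayed within the 95% interval of the reported value, 60 moved beyond it and 1 of the ratios whose interval leaves out 1 turned its direction.

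With only peaks from a −log10 q of 10 on, peaks per Mb were 92.1 in 4L, 85.7 in 2L, 51.3 in 6L, 49.2 in 6S and 50.1 in 2S. Stricter limits keep fewer peaks, so density falls by construction. With a limit of 5 they were 122 in 4L, 112 in 2L and 67.3 in 6S. In the outer 10 Mb they were 139 in 4L, 149 in 2L, 85.5 in 6L and 79.4 in 6S. With 4 Mb around the centromere left out, and chromosome 4 from 21 Mb, they were 126 in 2L and 83.1 in 6L. The median of 1 Mb bins was 126 in 2L and 82 in 6S.

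In the outer 10 Mb, the ratio of density of 4L over 2L turned to 0.931, while 2L had 2.1 times the density of 2S, 1.88 times that of 6S and 1.74 times that of 6L. The ratio of 6S over 2S was 1.16 with the median of bins, and that of 4L over 6L was 1.60 with the wider margin. That of 6L over 6S, whose interval includes 1, was 0.89 with the median of bins.

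With a −log10 q limit of 10, the median fold was 6.03 in 4L, 6.07 in 2L, 5.96 in 6L, 6.17 in 6S and 6.19 in 2S, and with 5 it was 5.22 in 4L, 5.31 in 2L and 5.29 in 6S. The median pileup with 10 was 49 in 4L, 48 in 2L, 46 in 6L, 46 in 6S and 44 in 2S, and with 5 it was 42 in 2L. The median width with 10 was 505.5 bp in 4L, 494.5 bp in 2L, 434 bp in 6L, 425 bp in 6S and 420 bp in 2S. The median background stayed within its interval in each case.

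Neighbouring summits under 1 kb apart made up 6.0% in 4L, 6.44% in 2L, 5.68% in 6L, 3.53% in 6S and 4.29% in 2S. Those under 2 kb, with a −log10 q limit of 10, made up 14.7% in 4L, 15.7% in 2L, 12.04% in 6L, 9.69% in 6S and 13.6% in 2S. Peaks of 1000 bp or more made up 12.6% in 4L and 10.8% in 2L with that limit, and 9.46% in 2L in the outer 10 Mb. Peaks of 800 bp or more made up 16.1% in 4L, 14.3% in 2L, 7.98% in 6L, 6.505% in 6S and 5.35% in 2S, a ratio of 2.25 between 2L with 4L and the other arms. The causes of these moves, other than fewer peaks at stricter limits, were not tested.

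No NIP peak lay within 10 kb of the arms, which was fixed in advance because the 2 NIP peaks lie on chromosome 11. The alternatives for start sites, genes with a summit, the G-box, CCAAT and duplicated gene pairs were not run, since genes and genome sequence were not used here. No paired analysis was possible because there is 1 library a group, and no replicate was there to leave out. The unknown depth of NIP-ChIP limits the comparison with the wild type.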
